A study of Mus musculus with 5 samples.

Results

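The genes that encode the proteins of the cytosolic ribosome were compared between 2 sorted cell populations of precancerous mouse mammary lesions. This set of genes was picked with earlier results of these data known, but its members were listed by symbol alone. The rule took Rpl or Rps followed by a number and an optional letter a, x, y or l. It also took the stalk genes Rplp0, Rplp1 and Rplp2, and Rpsa. This gave 81 of the 24347 symbols in the deposited tables, 49 of the large subunit and 32 of the small subunit. Ribosomal genes with other names, such as Fau, Rps3a1 and Gnb2l1, lie outside this rule and are described separately.

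All libraries came from MMTV-Wnt-1 transgenic mice on a mixed FVB, SJL and C57BL/6 background, in which the MMTV long terminal repeat drives Wnt-1 in the mammary epithelium. The ages of the mice are not given in the labels. One group consisted of keratin 6a positive (Krt6a+) cells, labelled precancerous stem cells, with 2 libraries numbered 2 and 3. The other, with 3 libraries numbered 1 to 3, consisted of cells that make whey acidic protein (WAP+), a milk protein. The input of each library was cDNA amplified from a small pool of cells, sorted by flow cytometry through TVA, the receptor of an avian virus. The labels state neither how TVA marked each population nor whether any library had its own animal. The p-values therefore cover only the scatter of these samples, which may be technical. In pools of cells, fewer cells of a type and less RNA per cell cannot be told apart.

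Levels were deposited as FPKM, a fragment count corrected for transcript length and library depth. From the deposited 95% intervals, taken as counting error, the depth was about 4280000 to 6180000 fragments per library. The label genes differed in the labelled direction. Krt6a had FPKM 1380 and 1133 in Krt6a+ against 168, 50.01 and 120 in WAP+ libraries (limma, log2 difference 3.50 ± 0.49 SE, adjusted p = 0.0383). Wap was listed at 0 in both Krt6a+ libraries and had FPKM 50.1, 126 and 13.9 in the WAP+ libraries (limma, adjusted p = 0.0448). Each call was lost when WAP+ library 1, 2 or 3 was left out (adjusted p = 0.102 to 0.202) and when Krt6a+ library 2 was left out (0.0573 for both).

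A cytosolic ribosome is built from a large subunit, which forms peptide bonds, and a small subunit, which reads the messenger RNA. Nearly every ribosomal protein is needed in equal amount, and their genes are among the most highly expressed of any growing cell. Most of their messenger RNAs start with a 5′ terminal oligopyrimidine (TOP) tract, an unbroken run of C and T beginning at the first base, through which the mTOR pathway and the RNA-binding protein Larp1 control their translation and stability. Many of the genes also have processed pseudogenes, copies of the spliced RNA scattered over the genome, which makes short reads hard to assign.

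Start sites of some ribosomal protein genes are shown first, because a TOP tract is described for most of their messenger RNAs. Each line gives 40 bases before to 20 bases after the RefSeq start, on the transcribed strand, from RefSeq on GRCm38.p6, the assembly also called mm10. Capitals mark the longest unbroken run of C and T. The locations are chr7:141447611-141447670 (plus strand) for Rplp2, chr10:128626487-128626546 (minus) for Rps26, chr7:28350649-28350708 (plus) for Rps16, chr4:86857348-86857407 (minus) for Rps6, chr9:64173347-64173406 (plus) for Rpl4, chr11:114668540-114668599 (plus) for Rpl38 and chr10:128549149-128549208 (minus) for Rpl41.
Rplp2: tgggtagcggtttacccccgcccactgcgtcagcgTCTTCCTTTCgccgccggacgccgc
Rps26: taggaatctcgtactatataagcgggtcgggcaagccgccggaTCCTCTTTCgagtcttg
Rps16: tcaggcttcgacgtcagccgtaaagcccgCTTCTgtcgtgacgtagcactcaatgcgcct
Rps6: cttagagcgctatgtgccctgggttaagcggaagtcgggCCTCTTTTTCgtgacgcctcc
Rpl4: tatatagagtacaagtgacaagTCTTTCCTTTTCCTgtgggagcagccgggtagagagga
Rpl38: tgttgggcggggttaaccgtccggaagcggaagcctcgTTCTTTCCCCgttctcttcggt
Rpl41: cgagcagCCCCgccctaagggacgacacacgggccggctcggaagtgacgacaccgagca

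The run lay at the annotated start in Rplp2 (10 bases, from 5 bases before it), Rps6 (10 bases, from 1 base before it) and Rpl38 (10 bases, from 2 bases before it). In Rps26 it was 9 bases long and began at base 4 of the transcript, and in Rpl4 it was 14 bases long and began 18 bases before the start. Rps16 and Rpl41 had no run longer than 5 and 4 bases in these 60. An annotated start can lie a few bases from the start used in a given cell.

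In the table of RefSeq promoters used here 60 of the 81 genes were matched, with 72 starts. A run of C and T of 8 bases or more, on the transcribed strand and within 30 bases of the start on either side, was present at 36 of the 72 starts (50%), against 22.9% of all 32851 promoters and 21% of those of the other tested genes. The motif CTTTC occurred in the same stretch at 31.9% of the starts, against 7.93% of all promoters, and often lies within such a run. On the opposite strand CTTTC was found at 8.33% of the starts, against 7.42%. CGGAAG, the core recognised by ETS factors such as Gabpa, was searched on both strands over the 300 bases from 250 before to 50 after the start. It was present at 44 of the 72 starts (61.1%), against 16.9% of all promoters, 31.8% of those of the other tested genes and 53.3% of those of mitochondrial ribosomal protein genes. The 300 bases around each of the 7 starts printed above held it. These matches describe the letters of the windows only.

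The ribosomal protein genes were lower in the Krt6a+ libraries as a group, by a similar factor in most of the abundant members. Their summed FPKM made up 3.94% and 3.54% of all FPKM in Krt6a+ against 6.89%, 8.80% and 8.84% in WAP+ libraries, and the groups did not overlap. Each library was then scaled by its median ratio over the genes present in all of them. On that scale the large subunit summed to 7890 ± 869 (SD, n = 2) for Krt6a+ against 20801 ± 5225 (SD, n = 3) for WAP+, a 2.64-fold gap. The small subunit summed to 6401 ± 871 (SD, n = 2) and 20554 ± 4156 (SD, n = 3), a 3.21-fold gap.

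**Figure D1:**
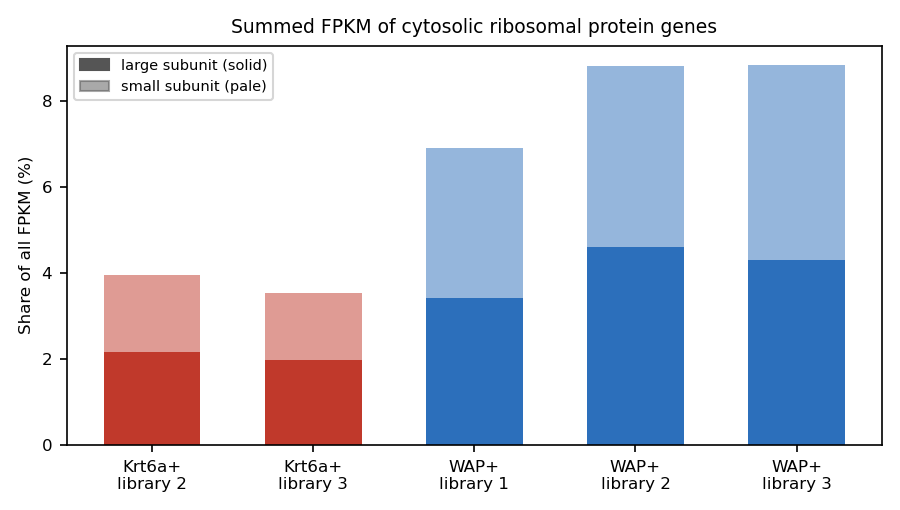
Share of all deposited FPKM, in percent, taken by cytosolic ribosomal protein genes in each library, with the large subunit as the solid and the small subunit as the pale part of each bar. Both Krt6a+ bars (3.94% and 3.54%) end below all 3 WAP+ bars (6.89% to 8.84%).

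The ratio of large to small subunit sums was 1.21 and 1.26 in Krt6a+ against 0.984, 1.09 and 0.947 in WAP+ libraries, again without overlap. A few genes carried the large subunit sum: its 3 most abundant members made up 59.97% to 63.9% of it in each library, against 31.7% to 35.9% for the small subunit. The log2 ratio of group means was -1.40 for the large and -1.68 for the small subunit. Without Rpl41, the most abundant gene, that of the large subunit was -1.55. The gap between the subunits therefore rested in part on Rpl41.

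Of the 81 genes, 55 were above 0 in all libraries, 21 were listed at 0 in some and 5 were listed at 0 in all. A level of FPKM 1 or more in at least 2 libraries was required for the test, and 67 genes met it, 38 of the large and 29 of the small subunit. The mean scaled FPKM over all libraries was 100 or more in 30 genes (13 large, 17 small), from 10 to 100 in 27 and under 10 in 19, apart from the 5 at 0. The order of the genes was much the same in every library. Over the 55 genes above 0 throughout, Spearman's rho was 0.939 to 0.972 between libraries, within and between populations alike. Rpl41, which encodes the smallest protein of the ribosome, ranked first and Rpl32 ranked second in each of the 5 libraries.

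The comparison was made with limma on log2(scaled FPKM + 1) over all 9682 tested genes, with p-values adjusted over all of them. A difference on this scale understates the change of low genes. The 67 tested members had a median log2 difference, Krt6a+ minus WAP+, of -1.61, and 64 were negative. The median was -1.42 in the large subunit (36 of 38 negative) and -1.65 in the small subunit (28 of 29 negative). Over all 9682 genes the median was -0.0072 and 50.2% were negative.

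By the adjusted threshold of 0.05, 3 of the 67 fell in the Krt6a+ libraries and none rose. Over all tested genes 0.434% passed in that direction, and 0.692% in either. The unadjusted p from limma was under 0.05 with a lower Krt6a+ level in 49 of the 67, against 9.45% of all genes, and with a higher level in 0. In 51 of the 67 both Krt6a+ values lay below all 3 WAP+ values, against 17.4% of all genes. In no member did both lie above, against 17.4% of all genes, and the groups overlapped in the other 16.

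**Figure D2:**
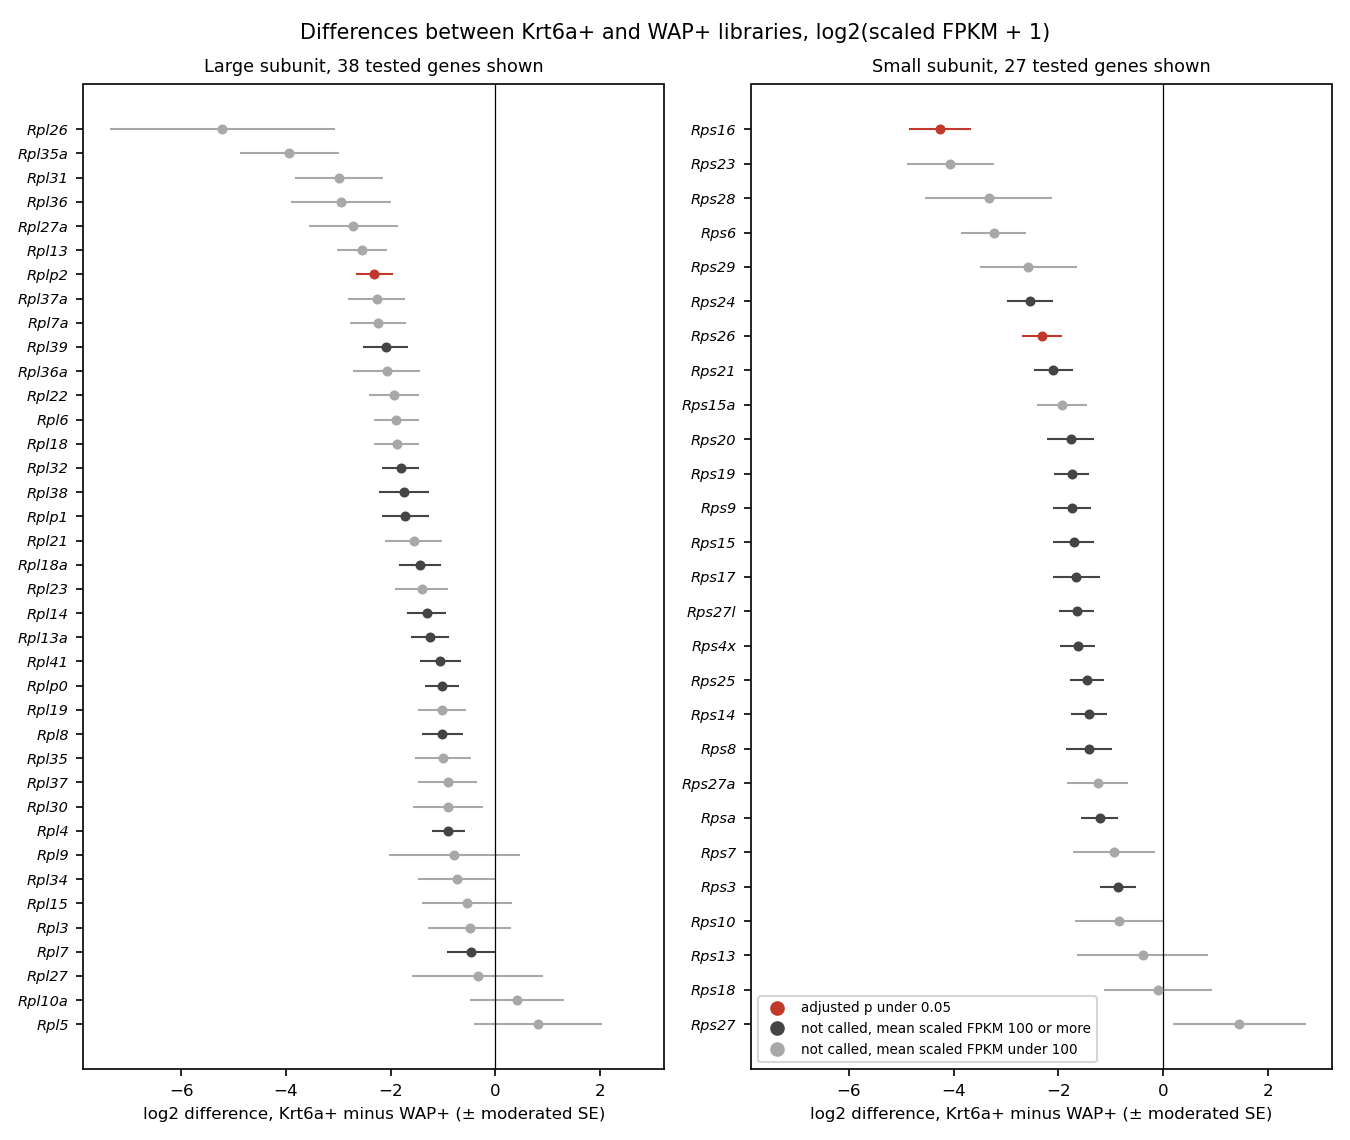
Log2 difference between Krt6a+ and WAP+ libraries for 38 tested large and 27 tested small subunit genes, with bars of 1 moderated standard error. Red points passed the adjusted threshold (Rplp2, Rps16, Rps26), dark points are other genes with a mean scaled FPKM of 100 or more and pale points are lower genes. Nearly all points lie left of 0, and the position of genes listed at 0 in both Krt6a+ libraries (Rpl26, Rps16, Rps23) depends on the pseudocount of 1.

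Rplp2 encodes P2, one of the acidic proteins of the stalk through which the large subunit binds the translational GTPases. Its FPKM was 105 and 103 in Krt6a+ against 443, 499.9 and 489 in WAP+ libraries. The counting intervals of the 2 groups, 81.3 to 124 at the outside in Krt6a+ and 397 to 545 in WAP+, lay far apart. It was 4.95-fold lower in Krt6a+ (limma, log2 difference -2.31 ± 0.35 SE, adjusted p = 0.0448). In mm10 its transcript NM_026020 spans 141447650 to 141451342 of chromosome 7 (plus strand). A deposited gene of closely related name, Rplp2-ps1, had FPKM 479 and 329 against 1269, 1558 and 1319 (limma, log2 difference -1.91, adjusted p = 0.0663). How reads were divided between them is not known.

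Rps26 encodes a small subunit protein at the exit of the messenger RNA channel. It had FPKM 223 and 150 in the Krt6a+ and 812, 915 and 804 in the WAP+ libraries. No WAP+ value came near a Krt6a+ value. It was 4.97-fold lower in Krt6a+ (limma, log2 difference -2.31 ± 0.38 SE, adjusted p = 0.0478). Its transcript NM_013765 spans 128624529 to 128626506 of chromosome 10 (minus strand).

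Rps16, of the small subunit, was listed at 0 in both Krt6a+ libraries, with an upper interval bound of 0 as well. It had FPKM 20.3, 15.1 and 17.8 in the WAP+ libraries (limma, adjusted p = 0.0383). These levels were far under those of the abundant members, and an exact 0 in these tables can be a failed estimate, so no fold is given. Its transcript NM_013647 spans 28350689 to 28352698 of chromosome 7 (plus strand). Leaving out any 1 of the WAP+ libraries ended all 3 calls (adjusted p = 0.133 to 0.202), and the calls of Rplp2 and Rps26 were also lost without Krt6a+ library 3 (0.0520 and 0.0623) and that of Rplp2 without Krt6a+ library 2 (0.0554). All 3 were lost with no filter on low values (0.122 to 0.178), with the replicate number as a block (0.0647 to 0.0924) and with the trend with transcript length removed (0.0578 to 0.175), Rplp2 and Rps26 with a pseudocount of 0.1 (0.0619 and 0.0732) or no mean-variance trend (0.109 and 0.118), and Rps26 with quantile normalization (0.0534).

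Several further genes stood just over the threshold. Rps24, a small subunit protein, had FPKM 92.9 and 50.02 against 325, 440 and 353 (limma, log2 difference -2.54 ± 0.44 SE, adjusted p = 0.0520). Rps21 had 373 and 527 against 1480, 1742 and 2058 (limma, adjusted p = 0.0542). Neither gene's groups overlapped. Rpl13 had 26.7 and 14.1 against 93.3, 113 and 123 (limma, adjusted p = 0.0570). Rpl32 had 1194 and 1319 against 3928, 4687 and 3603 (limma, log2 difference -1.81 ± 0.35 SE, adjusted p = 0.0594). In all, 22 of the 67 tested members had an adjusted p under 0.1 (limma), all of them negative. Over all 9682 tested genes 325 did, in either direction.

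The 30 abundant genes, with a mean scaled FPKM of 100 or more, gave the most uniform picture. All 30 differences were negative, with a median of -1.62 and quartiles of -1.74 and -1.26, and ran from -2.54 (Rps24) to -0.46 (Rpl7). In 29 of the 30 the groups did not overlap. Among the 567 other tested genes at that level, the median was -0.67, 399 were negative and 49.4% had both Krt6a+ values below all WAP+ values. Small subunit genes of this class had a median of -1.65 (17 genes, none overlapping) and large subunit genes -1.31 (13 genes, 1 overlapping).

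**Figure D3:**
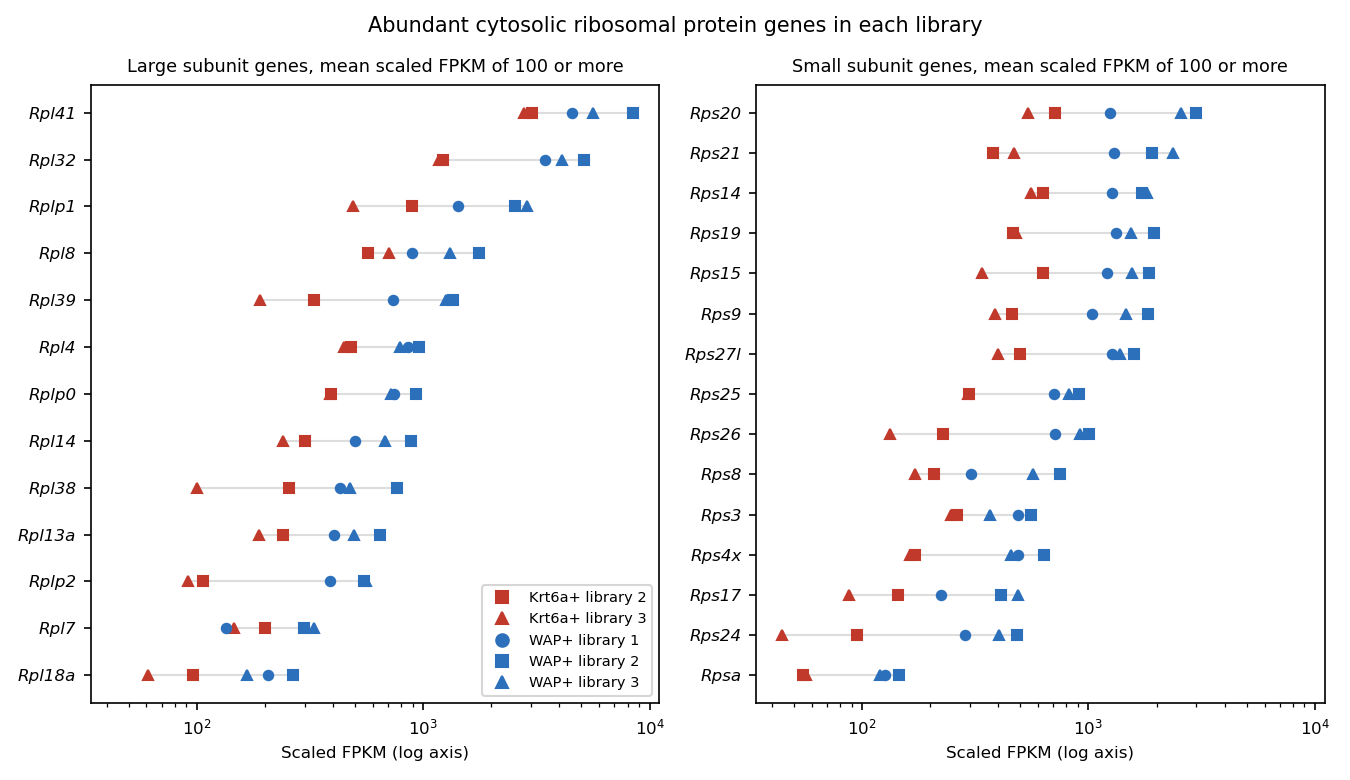
Scaled FPKM (log axis) of 28 of the 30 abundant genes in each library, large subunit on the left and small subunit on the right, ordered by mean. Red marks are Krt6a+ and blue marks WAP+ libraries. In every row but Rpl7 the red marks lie left of the blue ones.

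The difference was seen in each pair of libraries. Each Krt6a+ library set against each WAP+ library had 29 or 30 of the 30 genes lower, with a median log2 difference between -1.05 (Krt6a+ 2 against WAP+ 1) and -2.01 (Krt6a+ 3 against WAP+ 2), which is 2.07-fold to 4.02-fold. Within a population the medians were smaller. They were 0.26 between the 2 Krt6a+ libraries, -0.59 between WAP+ libraries 1 and 2, -0.36 between 1 and 3, and 0.27 between 2 and 3. WAP+ library 1 was thus the WAP+ library closest to the Krt6a+ libraries, lower than WAP+ library 2 in all 30 genes.

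Rpl41 had FPKM 2951 and 3131 against 5154, 7713 and 4901. It was the most abundant member and had one of the smaller differences of its class (limma, log2 difference -1.05 ± 0.39 SE, adjusted p = 0.223). Rpl8, a large subunit protein, had 557 and 795 against 1015, 1611 and 1153, a difference of -1.01. Rpl39, a short protein of the peptide exit tunnel, had 324 and 215 against 837, 1230 and 1097, a difference of -2.10. These 3 differences have the same sign, and their sizes were not tested against each other. Rpl4, a protein with a long loop that lines the exit tunnel, had 469 and 504 against 976, 868 and 687, the second smallest difference among the abundant large subunit genes at -0.90. Rpl7 was the exception, with 196 and 164 against 153, 270 and 287. WAP+ library 1 was below both Krt6a+ libraries there (limma, log2 difference -0.46 ± 0.47 SE, adjusted p = 0.664).

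Among abundant small subunit genes, Rps20 had FPKM 699 and 611 against 1421, 2704 and 2235, and every Krt6a+ value was below every WAP+ value. Rps14 had 616 and 629.5 against 1449, 1564 and 1583, and the 3 WAP+ values were close together. Rps4x, the X-linked form of the gene, had 169 and 184 against 555, 576 and 397 (limma, log2 difference -1.63 ± 0.34 SE, adjusted p = 0.0697). Rps19, whose human counterpart is mutated in Diamond-Blackfan anaemia, had 456 and 541 against 1505, 1765 and 1354 (limma, log2 difference -1.74 ± 0.34 SE, adjusted p = 0.0606). Rps27l, the paralogue of Rps27 and a target of p53, was abundant, with 489 and 452 against 1442, 1452 and 1206 (limma, log2 difference -1.65 ± 0.33 SE, adjusted p = 0.0646). Rps3, a protein at the entry of the messenger RNA channel, had the smallest difference of the 17 at -0.86, with 258 and 279 against 556, 505 and 322.

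The stalk genes did not share one size of difference. Rplp0, the anchor of the stalk on the large subunit, had FPKM 384 and 437 against 846, 849 and 631 (limma, log2 difference -1.03 ± 0.32 SE, adjusted p = 0.167). Rplp1, the partner of Rplp2, had 874 and 555 against 1620, 2304 and 2499 (limma, log2 difference -1.72 ± 0.45 SE, adjusted p = 0.115). Of the stalk genes only Rplp2 passed the threshold; the differences between the 3 genes were not tested. Rpsa, the small subunit protein also known as the laminin receptor, had 53.6 and 63.8 against 144, 132 and 105, a difference of -1.21 ± 0.35 (SE). Rps6, the substrate of the S6 kinases, was a low gene in these tables. It had 1.47 and 0.59 against 13.0, 20.6 and 17.4, without overlap (limma, log2 difference -3.23 ± 0.62 SE, adjusted p = 0.0597).

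Lower members scattered more widely. Of the 37 tested members with a mean under 100, 34 were negative, and the median of the 37 was -1.56. In 22 of the 37 both Krt6a+ values lay below all WAP+ values, against 17.4% of all tested genes. The largest negative differences of both subunits came from these genes. Rpl26 was listed at 0 in both Krt6a+ libraries and in WAP+ library 1, but had FPKM 204 and 198 in WAP+ libraries 2 and 3. Its listed level thus differed between 0 and 204 within the WAP+ population, and the groups overlapped (limma, adjusted p = 0.267). Rpl35a had 0.56 and 0 against 6.66, 14.4 and 52.4. Rpl31 had 0 and 4.59 against 20.7, 25.1 and 8.14. The groups of Rpl35a and Rpl31 did not overlap, but their WAP+ values spread over several-fold. Rpl36 had 13.0 and 1.12 against 24.4, 93.7 and 24.9, and Rpl27a had 3.69 and 0.45 against 16.5, 33.7 and 6.36.

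In the small subunit Rps23, which lies close to the decoding site, was listed at 0 in both Krt6a+ libraries and had FPKM 9.60, 40.04 and 8.73 in the WAP+ libraries (limma, adjusted p = 0.0685). Rps28 had 13.0 and 0 against 19.3, 21.6 and 107. Rps29, a zinc-binding protein, had 4.76 and 3.12 against 36.7, 74.1 and 6.13. None of these groups overlapped, and none of these genes passed. The genes with the least negative or positive differences were also low. Rps27 had 2.13 and 14.0 against 0, 0 and 10.97, a difference of 1.45 ± 1.27 (SE), Rpl5 had 9.69 and 0 against 0, 5.17 and 0, a difference of 0.81 ± 1.22, and Rpl10a had 0 and 4.82 against 0.45, 0 and 2.35, a difference of 0.41 ± 0.90. These were the 3 positive members, and each standard error was near or above the size of its difference.

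Among the low genes, Rps18 (difference -0.10), Rps13 (-0.39), Rps10 (-0.84) and Rps7 (-0.94) were the small subunit genes with the negative differences closest to 0, and Rpl27 (-0.34), Rpl3 (-0.49) and Rpl15 (-0.54) were among those of the large subunit. The groups of each of these low genes overlapped, whereas those of the abundant Rps3 (-0.86) did not. By mean scaled FPKM the lowest tested genes were Rpl10a (1.47), Rpl3 (1.95) and Rpl15 (2.60) of the large subunit, and Rps18 (2.61), Rps13 (4.22) and Rps27 (5.43) of the small subunit. The listed levels thus spanned from these values to the mean of 4881 for Rpl41, although a ribosome holds nearly all of its proteins in equal number.

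Exact zeros were common. Rpl10, Rpl10l, Rpl11, Rpl29 and Rpl3l were listed at 0 in every library. Rpl3l is a striated muscle form of Rpl3 and Rpl10l a testis form of Rpl10, whereas Rpl10, Rpl11 and Rpl29 belong to the ribosomes of all tissues. Rpl11, which together with Rpl5 binds Mdm2 when ribosome assembly fails, therefore had no measured level. The genes listed at 0 in some libraries with a mean under 10 were Rpl5, Rpl10a, Rpl12, Rpl17, Rpl23a, Rpl24, Rpl27, Rpl28, Rpl39l, Rps2, Rps4l, Rps12, Rps13, Rps18 and Rps27. Rpl39l, a testis form of Rpl39, was above 0 in WAP+ library 3 alone (2.08), and Rps4l had 20.8 in Krt6a+ library 3 and at most 0.45 elsewhere. Of the 163 zeros among 500 transcript values of these genes, 82 also had an upper interval bound of 0.

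Near copies moved with the level. Each member's transcript was aligned to transcripts of all other, non-overlapping genes of GENCODE release M21, and a copy was counted at an identity of 98% or more over 100 bases or more. Of 80 members with a transcript there, 67 had at least 1 copy, and Rpl21 had 17. For mitochondrial ribosomal protein genes the count was 12 of 77. The 13 members without a copy had a median of the mean scaled FPKM of 1029, the 26 with 1 or 2 copies 305 and the 41 with 3 or more copies 12.5. Of the last class, 18 were under 10 and 19 were at 0 in some library. Over the 80 genes Spearman's rho of copies with level was -0.54, given as a description, since the genes share libraries and the authors' read assignment.

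**Figure D4:**
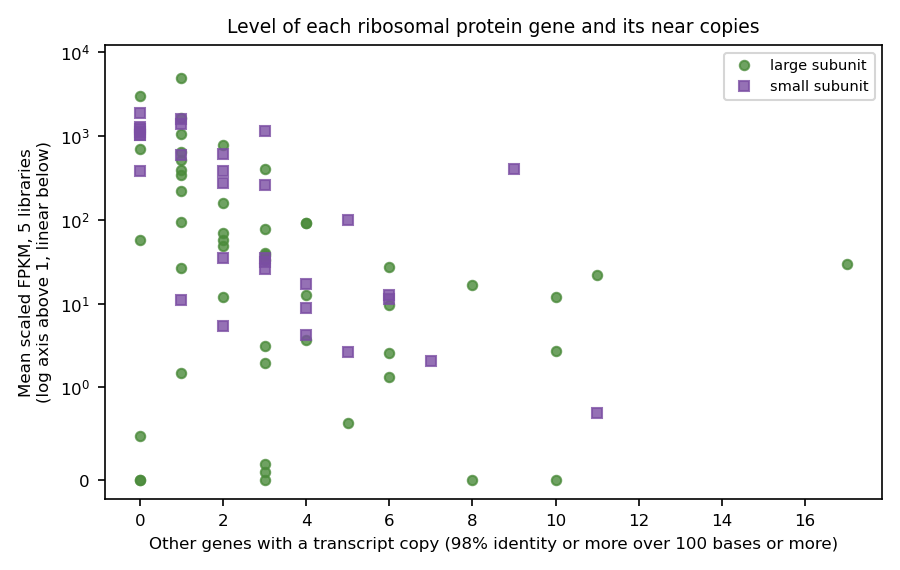
Mean scaled FPKM over 5 libraries (log axis above 1, linear below) of each of 80 ribosomal protein genes against its number of near-identical copies in other genes. Of the 13 genes with no copy 9 lie at 100 or more, against 5 of the 41 genes with 3 copies or more.

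The lower Krt6a+ level was also seen in genes without copies at 98% identity. All 10 tested members with 0 copies had both Krt6a+ values below all WAP+ values, as did 21 of 26 with 1 or 2 copies and 20 of 31 with 3 or more. The share was 17.4% of all genes and 49.4% of other genes with a mean scaled FPKM of 100 or more. Rpl32, described above, had no copy at this identity. At 95% it had 4, over 78.9% of its transcript. The part of copies in the difference was not tested. Rps19 had 3 copies, Rps26 and Rps16 had 1 each, Rps6 had 6, and Rplp2 had 1. Levels of members with copies are uncertain, as the authors' counting may have split or dropped their reads.

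Some related names had a higher FPKM than the better known one. Rpl37rt had FPKM 730 and 654 against 2059, 2178 and 1202, while Rpl37 had 17.2 and 16.1 against 55.2, 34.2 and 13.7. Rpl36al, a near relative of Rpl36a, had 522 and 219 against 1104, 1017 and 736, while Rpl36a had 5.05 and 2.07 against 26.6, 9.01 and 17.0. Whether reads of one gene of a pair were counted for the other is not known. Rpl14-ps1 had 510.5 and 521 against 1334, 1217 and 861, and Rpl14 had 294 and 272 against 568, 806 and 595. Of 9 deposited symbols of this kind, with the endings ps and rt, 6 were tested, with a median of -1.37, and 0 passed (limma; 3 had an unadjusted p under 0.05, all lower in Krt6a+).

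Ribosomal genes outside the naming rule were mostly negative as well. Gnb2l1, the older symbol of the small subunit scaffold Rack1, had FPKM 483 and 359 against 918, 1206 and 1127 (limma, log2 difference -1.49 ± 0.39 SE, adjusted p = 0.117). Rps3a1 had 177 and 148 against 432, 552 and 430 (limma, log2 difference -1.65 ± 0.37 SE, adjusted p = 0.0831). Rpl22l1, the paralogue of Rpl22, had 69.7 and 90.0 against 292, 436 and 378 (limma, log2 difference -2.30 ± 0.39 SE, adjusted p = 0.0520), and Rpl22 itself had 15.1 and 28.6 against 57.6, 89.3 and 85.7 (difference -1.94). In each of these 4 genes the groups did not overlap. Rpl7l1, a nucleolar relative of Rpl7, had 29.1 and 35.0 against 22.5, 20.8 and 37.1, a difference of 0.17. Fau had a mean scaled FPKM of 34.5 ± 37.9 (SD, n = 2) in Krt6a+ against 37.6 ± 9.83 (SD, n = 3) in WAP+ libraries. Its groups overlapped (limma, log2 difference -0.70 ± 0.79 SE, adjusted p = 0.700). Of 7 tested genes of this list, 6 were negative, the median was -1.49 and 0 passed (limma; 5 had an unadjusted p under 0.05, all lower).

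Transcript length moved with the difference across all genes. Among tested genes that were not members, the median log2 difference was -1.19 for the 94 transcripts under 500 bases, -0.74 for the 768 from 500 to under 1000, -0.29 for the 2425 from 1000 to under 2000, 0.08 for the 3927 from 2000 to under 4000 and 0.24 for the 2401 of 4000 or more. Ribosomal protein transcripts are short, with a median of 710 bases. In the 3 shorter classes the members had medians of -2.08 (14 genes), -1.43 (36 genes) and -1.32 (14 genes), each below that of the other genes of the class. Among genes with a mean scaled FPKM of 100 or more the medians of members and other genes were -1.74 and -1.32 under 500 bases, -1.61 and -0.94 from 500 to under 1000, and -1.12 and -0.38 from 1000 to under 2000. When the length trend of the other genes was subtracted in each library, an alternative chosen after seeing the data, the median of the 67 members was -0.70. With it 54 of the 67 were negative, 27 had an unadjusted p under 0.05 with a lower Krt6a+ level and 0 passed (limma).

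**Figure D5:**
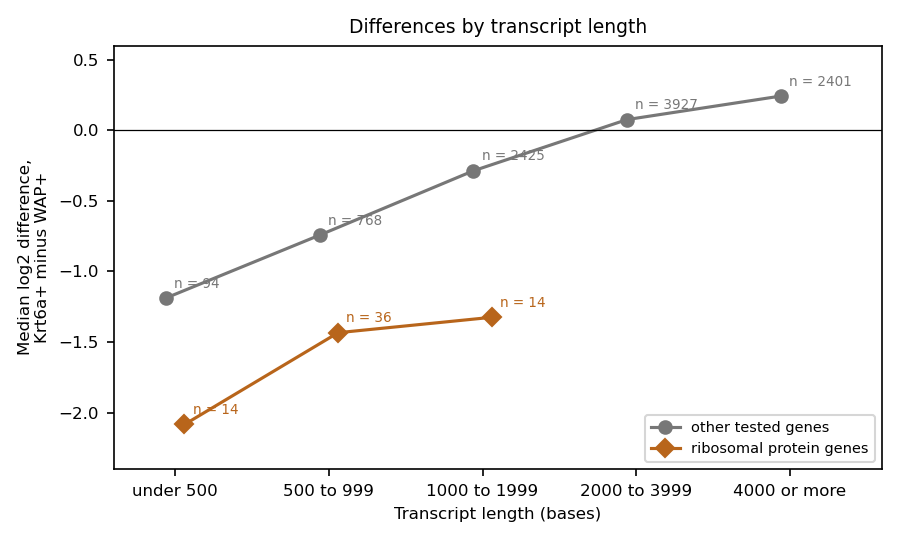
Median log2 difference, Krt6a+ minus WAP+, by transcript length class in bases, for the other tested genes (grey circles) and for ribosomal protein genes (brown diamonds), with the number of genes beside each point. Both lines rise with length, and the ribosomal protein genes lie below the other genes in each class shown; classes of the members with 1 or 2 genes are left out.

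A list of 17 genes whose messenger RNAs carry a TOP tract held translation factors and others, namely Hnrnpa1, Nap1l1, Naca, Btf3 and Tpt1. None of the 17 passed the test, although all 17 differences were negative, with a median of -1.03. In 13 of the 17 both Krt6a+ values lay below all WAP+ values, against 17.4% of all genes. The unadjusted p from limma was under 0.05 in 7, all lower, against 9.45% of all genes. Pabpc1, the poly(A)-binding protein, had FPKM 41.2 and 46.4 against 144, 109 and 151 (limma, log2 difference -1.71 ± 0.37 SE, adjusted p = 0.0783). Eef1g, a subunit of the elongation factor eEF1B, had 22.7 and 21.8 against 75.7, 87.7 and 61.4 (limma, log2 difference -1.81 ± 0.40 SE, adjusted p = 0.0817). Eif3k, a subunit of the initiation factor eIF3, had 110 and 50.2 against 213, 277 and 236. None of the values of these 3 genes overlapped between groups. The other initiation factors had a median of -0.57, with 15 of 21 negative and 0 passing (limma, 5 with an unadjusted p under 0.05, all lower). Their transcripts were longer, with a median length of 2513 bases against 1565 for the 17 genes. Tested genes that were not members had medians of -0.29 from 1000 to under 2000 bases and 0.08 from 2000 to under 4000. The part of length in this gap was not tested.

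Mitochondrial ribosomal proteins, which form a separate ribosome and have few near copies, gave a smaller median. Of 76 tested, 67 were negative, the median was -0.999 and 0 passed (limma). In 33 of the 76 both Krt6a+ values lay below all WAP+ values, against 17.4% of all genes. The unadjusted p from limma was under 0.05 in 25, all lower, against 9.45% of all genes. Their transcripts had a median length of 1052 bases. Mrpl30 had FPKM 35.9 and 48.0 against 150, 100 and 125, Mrpl52 had 249 and 190 against 687, 1063 and 506, and Mrpl9 had 0 and 4.34 against 33.9, 18.7 and 32.2. These were the 3 with the strongest statistic, and none overlapped between groups.

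Genes that make ribosomes had medians closer to 0 than the ribosomal protein genes, and longer transcripts. The median length was 2662 bases for ribosome assembly genes and 1957 for those of RNA polymerase I, and other genes of 2000 to under 4000 bases had a median difference of 0.08. The 48 tested ribosome assembly genes had a median of -0.33, with 34 negative and 0 passing (limma; 4 lower and 1 higher at an unadjusted p under 0.05). Rrs1, needed for assembly of the large subunit, had FPKM 3.59 and 2.98 against 21.4, 44.9 and 11.8, and Nhp2, a protein of the H/ACA particles that modify ribosomal RNA, had 85.8 and 103 against 239, 265 and 172. Ddx47, a helicase of ribosomal RNA processing, had the opposite direction, with 138 and 54.0 against 22.4, 14.0 and 12.7 (limma, log2 difference 2.26 ± 0.54 SE, adjusted p = 0.0982). The 19 genes of RNA polymerase I and its factors had a median of 0.18, with 8 negative and 0 passing (limma; 1 lower and 2 higher at an unadjusted p under 0.05). Among them Znrd1, a polymerase I subunit, had 141 and 157 against 73.0, 52.8 and 61.8.

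Regulators of TOP messenger RNAs and of ribosomal protein genes had a median of -0.01 over 23 genes, with 12 negative and 0 passing (limma; 1 lower and 1 higher at an unadjusted p under 0.05). Gabpa, the ETS factor of the CGGAAG motif, was listed at 0 in all WAP+ libraries and had FPKM 4.93 and 8.28 in the Krt6a+ libraries (limma, adjusted p = 0.0685). Larp1 had 7.74 and 15.5 against 12.6, 3.45 and 9.05, and Myc had 67.4 and 246 against 220, 82.1 and 55.8. The groups of Larp1 and Myc overlapped. Eif4ebp1, a translational repressor that mTOR inactivates, had 248 and 200 against 432, 324 and 261, without overlap (limma, log2 difference -0.69 ± 0.35 SE, adjusted p = 0.354). Of 7 genes of the p53 and nucleolar stress list 0 passed (limma; 1 lower and 2 higher at an unadjusted p under 0.05). Cdkn1a, the cell cycle inhibitor p21, had 276 and 524 against 191, 66.6 and 120 (limma, log2 difference 1.60 ± 0.46 SE, adjusted p = 0.138). Trp53, which encodes p53, had the opposite direction, with scaled FPKM 3.86 and 29.2 against 51.2, 32.4 and 45.4 (limma, log2 difference -1.84 ± 0.75 SE, adjusted p = 0.261). Its groups did not overlap on the scaled values, but in FPKM before scaling Krt6a+ library 3 lay above WAP+ library 2. Without Krt6a+ library 3 the difference of Trp53 was -3.14, and without Krt6a+ library 2 it was -0.51. Housekeeping genes had a median of -0.46 over 12 genes, with 10 negative and 0 passing (limma; 4 lower at an unadjusted p under 0.05). The housekeeping list holds 1 member, Rplp0, which is among these 4.

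Markers of the labelled lineages differed with the groups beside the ribosomal protein genes. The 4 basal markers summed to FPKM 3783 to 4103 in Krt6a+ and 196 to 1127 in WAP+ libraries, and the 5 luminal and milk markers to 529 to 2531 and 6140 to 10830. Of 11 immune markers 8, among them Ptprc and Cd3e, were at 0 in all libraries, and the sum was 6.49 to 21.4 in Krt6a+ and 10.1 to 26.4 in WAP+. The 5 endothelial markers summed to at most 0.74 and 23.4, and the 6 fibroblast markers to 57.5 to 210 and 8.60 to 84.2. Most of the fibroblast sum was Dcn, with mean scaled FPKM 118 in Krt6a+ and 33.5 in WAP+ libraries, and its groups overlapped. Col1a1, Col1a2 and Col3a1 had means of 1.24, 2.10 and 0.77 in Krt6a+ against 0.89, 2.64 and 2.29 in WAP+. Pdgfra and Lum had means under 1 in both groups. Of 5 adipocyte markers only Fabp4 was detected, at 0 in both Krt6a+ libraries and at 2188, 65.8 and 20.3 in the WAP+ libraries. The 5 erythroid markers in the tables were at 0 throughout. The part of lineage in the result was not tested, and the populations differ in it by design.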

How the data were processed

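FPKM values with 95% bounds were deposited by the authors for 34535 RefSeq transcripts per library; TopHat, Cufflinks and mm10 are named per the submitters' processing notes, with versions not given in the sources used here. The cDNA kit does not mark strand. Rows were summed by symbol and scaled by median ratios over the 5334 genes that reached FPKM 1 in each of 5 libraries. Genes at FPKM 1 or more in 2 or more libraries (9682) were fitted as log2(scaled FPKM + 1) with limma 3.58.1 in R 4.3.3 (eBayes with trend; two-sided; Benjamini-Hochberg; threshold 0.05; degrees of freedom 3 residual, 4.87 prior). FPKM is no count, so no count model was run. An exact permutation test of 2 against 3 libraries cannot go below p = 0.1 and was not used. Copies were found with blastn 2.17.0. The limma step was also run on simulated data, drawn as independent normal values around the observed means and spreads. Known changes were placed only in genes above a set mean level. Changes in low genes, exact zeros and the length trend were therefore not covered, and the outcome is not given here. Named genes were the label genes, all members past the threshold, per subunit the 5 largest differences in each direction and the 5 highest and 3 lowest levels, members at 0, paralogues, the stalk genes, Rpsa, Rack1 and Rps6, and up to 3 genes per list by moderated statistic; Rps24, Rps21, Rpl13, Rps19, Rps3, Rpl4, Rpl14, Rpl38, Rps7, Rps10, Larp1, Myc and the ps and rt symbols were named after their values were seen. The members and lists were chosen with earlier results of these data known. Fau and the single fibroblast markers were also named after their values were seen. Alternatives were other scalings, pseudocounts, filters, variance models, row choices, a replicate block, omission of each library and removal of the length trend. Some items are not reported here and are left out of the plots that name genes.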

Additional observations from a re-analysis of the deposited data

How the results depend on the processing

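The subunit medians were negative under every alternative run; the subunit sums were computed on the scaled values and on the FPKM without scaling. The number of members lower in Krt6a+ at the adjusted threshold, 3 in the report, was 1 with a pseudocount of 0.1, 1 without a mean-variance trend, 0 with no filter, 16 with FPKM 1 or more required in all libraries, 0 with the length trend removed and 0 to 5 when 1 library was left out. Over all genes the counts lower and higher, 42 and 25, were 27 and 23 without scaling, 39 and 39 with quantile normalization, 20 and 6 with a pseudocount of 0.1, 31 and 41 with 5, 3 and 2 with no filter, 99 and 80 with the stricter filter, 9 and 7 without the trend, 31 and 62 with the length trend removed, and 3 to 103 and 2 to 44 when 1 library was left out. Without Krt6a+ library 3 they were 103 and 44, and without any WAP+ library at most 4 and 2. The stricter filter tests 5334 genes, and in the left-out fits of a Krt6a+ library the remaining one is assumed to vary like the WAP+ libraries. The cause of the other shifts was not tested. The filter on all libraries removes the genes listed at 0.

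Quantile normalization gave medians of -1.12 (large) and -1.08 (small), and removal of the length trend -0.68 and -0.73. The medians ranged from -1.74 to -1.22 (large) and from -1.85 to -1.44 (small) when 1 library was left out. All 30 abundant members stayed negative under every alternative except removal of the length trend, which left 28, and their median ran from -1.77 to -0.67. Of the 3 called members, Rplp2 passed in 6 of 16 alternatives (adjusted p = 0.0133 to 0.202), Rps26 in 6 of 16 (0.0139 to 0.202) and Rps16 in 9 of 15 (0.0277 to 0.202).

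Numbers 2 and 3 are shared by both populations. Deviations of same-numbered libraries from their group means had r = 0.05 and 0.0003 over genes. With only 2 Krt6a+ libraries, their deviations are mirror images of each other. These values therefore cannot decide whether same-numbered libraries share an animal or a batch. With a replicate block Rplp2, Rps16 and Rps26 were not called, 1 member was called lower (Rpl26), and 19 and 15 genes in all.

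Single genes that changed sign were all outside the threshold, and the cause was not tested. When 1 library was left out, Rpl15 ranged from -0.95 to 0.22, Rpl7l1 from -0.057 to 0.47, Rps13 from -1.85 to 1.06 and Rps18 from -0.81 to 0.76. Rpl7l1 was -0.040 with the replicate block, and Rps18 was 0.40 with a pseudocount of 0.1. With the length trend removed Rpl41 was 0.19, Rpl7 0.15, Rps13 0.63 and Rps18 1.01. Depth was known only from interval widths, and how reads of near copies were assigned is not known.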
